A study of Solanum lycopersicum with 2 samples.

Results

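Cyclin-positive cells, defined as tomato root cells with transcripts of at least 2 of 6 mitotic cyclin genes, numbered 1162 of 22634 cells. They came from 2 single-cell libraries of the wild-type cultivar M82, both of 1 group, so no treatment or genotype was compared. For each library the terminal 3 cm of primary roots, taken 7 days after sowing and pooled, was digested with wall-degrading enzymes to release protoplasts. Transcripts were counted as UMIs (unique molecular identifiers, each tagging 1 captured molecule) at their 3′ ends in droplets. The rule named 8 genes, and the members were the cells with UMIs of 2 or more of them. The identifiers of both B-type cyclin-dependent kinases (CDKB) among the 8 matched no gene of the tables, so these genes were not analysed here, and the kinases of a dividing-cell signature could not be checked. The members were thus chosen by the UMIs of 2 A-type cyclins, Solyc11g005090 and Solyc06g065680, and 4 B-type cyclins, Solyc06g073610, Solyc10g080950, Solyc02g082820 and Solyc10g078330. The classes of these genes are those of the rule. The tables pair no other identifier with a name, and names of further genes are those the study gave.

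Cyclins are the regulatory subunits of cyclin-dependent kinases, and their periodic synthesis and destruction drives a cell through its division cycle. In plants, A-type cyclins typically accumulate from S phase, when DNA is copied, and B-type cyclins from G2 until they are degraded in mitosis. CDKB kinases are found in plants and partner mitotic cyclins. In a root tip most divisions occur in the apical meristem, and cells leave the cycle as they elongate and differentiate.

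Replicate 1 held 12481 barcodes with 187215851 UMIs and replicate 2 held 10253 with 81175339, a 2.31-fold difference in depth. Removal of cells with fewer than 500 UMIs or with over 1% organelle UMIs took 78 and 22 barcodes. The libraries shared 38 barcodes, none of which was a member in both. Doublets were kept.

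In replicate 1, 827 of 12403 cells were cyclin-positive, a share of 6.67% with an exact (Clopper-Pearson) 95% interval from 6.23% to 7.12%. In replicate 2 the share was 3.27%, 335 of 10231 cells, and its interval ran from 2.94% to 3.64%. Such intervals reflect counting error alone. The mean over the libraries was 4.97% ± 2.40 (SD, n = 2), with a 2.04-fold difference between the libraries. Cyclin-positive cells were deeper than the rest. Their median was 27592 UMIs in replicate 1 against 7283 in the other cells, and 23035 against 3626.5 in replicate 2. Among the members, 23.9% in replicate 1 and 39.1% in replicate 2 belonged to the 5% of cells with the most UMIs. When every cell was thinned to 4000 UMIs and the rule applied again, 203 of 8230 cells (2.47%, interval 2.14% to 2.83%) and 100 of 4973 cells (2.01%, interval 1.64% to 2.44%) were members. The intervals of the libraries then overlapped and the shares differed 1.23-fold.

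The share climbed with depth in both libraries. Among cells with at least 500 and under 2000 UMIs, 0.282% were members in replicate 1 and 0.432% in replicate 2. Among cells with 32000 UMIs or more the shares were 20.5% (exact 95% interval 18.7% to 22.5%) and 27.1% (23.1% to 31.4%). From 4000 to under 32000 UMIs replicate 1 had the higher share. Between 8000 and 16000 UMIs it was 5.98% (5.08% to 7.00%) against 3.35% (2.52% to 4.36%), and between 16000 and 32000 UMIs 11.8% (10.4% to 13.3%) against 7.94% (6.32% to 9.82%), so in these classes the libraries differed beyond counting error. Without the 5% of cells with the most UMIs, the shares were 5.34% and 2.10%, a 2.54-fold difference.

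**Figure D1:**
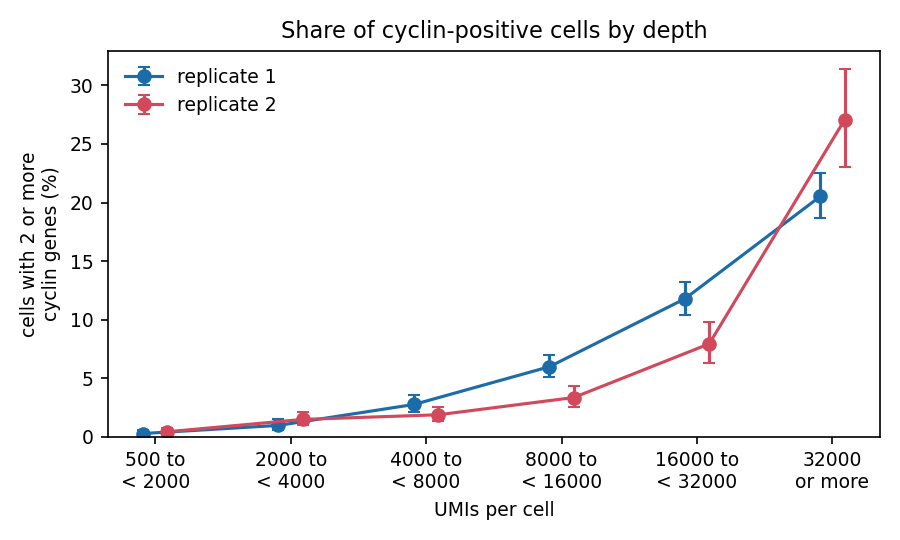
Share of cells with UMIs of 2 or more cyclin genes (vertical axis, %) in 6 classes of UMIs per cell (horizontal axis), for each replicate, with exact 95% binomial intervals as bars. The share lies below 1% in the shallowest class of both replicates and reaches 20.5% and 27.1% in the deepest.

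The members differed in the number of cyclin genes detected. In replicate 1, 453 cells had exactly 2 of the 6 genes, 154 had 3, 97 had 4, 102 had 5 and 21 had all 6. In replicate 2 these counts were 198, 49, 36, 41 and 11. Just outside the rule were 2309 and 1212 cells with a single cyclin gene, whose median depths were 15163 and 10419 UMIs, compared with 23633 and 16713.5 in cells with exactly 2. Cells with all 6 had medians of 55092 and 36210 UMIs, and the part of depth in these counts was not tested. At 4000 UMIs per cell, the median number of genes detected was 1808 in cells with no cyclin and 1617.5 in cells with 5 cyclins of replicate 1, and 1829 against 1763 in replicate 2.

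The levels of the 6 cyclins in members follow from how the members were chosen and are given as a description, in counts scaled to 1000000 UMIs of the summed cells (CPM). Solyc11g005090 had 44.3 CPM in members and 1.32 CPM in other cells of replicate 1, and 44.6 against 0.986 CPM in replicate 2. The B-type Solyc10g080950 had 61.5 against 1.46 CPM and 87.7 against 1.26 CPM. Nearly all UMIs of both lay in members, 86.7% and 85.2% for the former and 89.1% and 89.8% for the latter. The remaining A-type cyclin was different. Solyc06g065680 had 45.5 CPM in members and 13.7 CPM in other cells of replicate 1, 68.2 against 15.4 CPM in replicate 2, and only 39.2% and 36.1% of its UMIs came from members. The B-type Solyc06g073610 was sparse, with 359 and 206 UMIs in the whole libraries, of which 50.7% and 40.8% were in members.

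To obtain a measure of each cyclin that its own UMIs had not shaped, cells were chosen again by 2 or more of the other 5 genes, and the level of the left-out gene was tested between these cells and the rest. The test was edgeR's quasi-likelihood test on summed counts with library as a block and Benjamini-Hochberg adjustment over all genes of the fit. It was chosen after the data were seen. Each of the 6 left-out cyclins was higher in the cells chosen without it, in both libraries. All 6 genes belong to the rule, so these values describe how the cyclins go together. They are no independent check of the members.

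Solyc02g082820 had 57.6 CPM in 686 cells chosen by the other cyclins and 2.47 CPM in the rest of replicate 1, and 91.0 against 2.62 CPM in replicate 2. The log2 fold change was 5.22 ± 0.18 (SE, n = 2), with an adjusted p of 2.4e-06. In that fit 26.5% of all genes were higher. In replicate 1, 47.2% (exact 95% interval 43.4% to 51.0%) of the chosen cells had a UMI of it, against 2.74% of the rest, at a median depth of 30295 UMIs in the former. Other cells of at least that depth, with a median of 43821.5 UMIs, had a UMI of it in 4.37%.

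Solyc10g080950 was close to it, with 63.6 against 2.72 CPM and 88.6 against 2.50 CPM and a log2 fold change of 5.21 ± 0.17 (edgeR adjusted p = 3.23e-14, 27.2% of genes higher). Solyc10g078330 had 15.3 against 0.851 CPM and 28.1 against 1.34 CPM, a log2 fold change of 4.67 ± 0.20 (edgeR adjusted p = 1.14e-14, 27% of genes higher). The A-type Solyc11g005090 had 42.6 against 3.04 CPM and 39.7 against 2.39 CPM, a log2 fold change of 4.30 ± 0.15 (edgeR adjusted p = 2.16e-07, 25.2% of genes higher). These 4 genes had 14.0- to 35.4-fold higher CPM in the chosen cells of either library.

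The last pair of cyclins was higher by a smaller margin. Solyc06g065680 had 37.1 against 16.7 CPM and 62.0 against 18.3 CPM, a log2 fold change of 1.90 ± 0.18 (edgeR adjusted p = 3.12e-07, 25% of genes higher). It was seen in 49.8% of the chosen cells of replicate 1 and in 37.4% of other cells of at least their median depth. Solyc06g073610 had 4.17 against 1.51 CPM and 5.89 against 2.16 CPM, a log2 fold change of 1.87 ± 0.25 (edgeR adjusted p = 1.97e-08, 29.5% of genes higher). Against only the other cells at or above the median depth of the chosen cells, the 6 log2 fold changes were 4.49 for Solyc11g005090, 1.61 for Solyc06g065680, 2.32 for Solyc06g073610, 5.49 for Solyc10g080950, 5.87 for Solyc02g082820 and 4.74 for Solyc10g078330. These comparison cells were deeper than the chosen cells, and no direction changed.

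**Figure D2:**
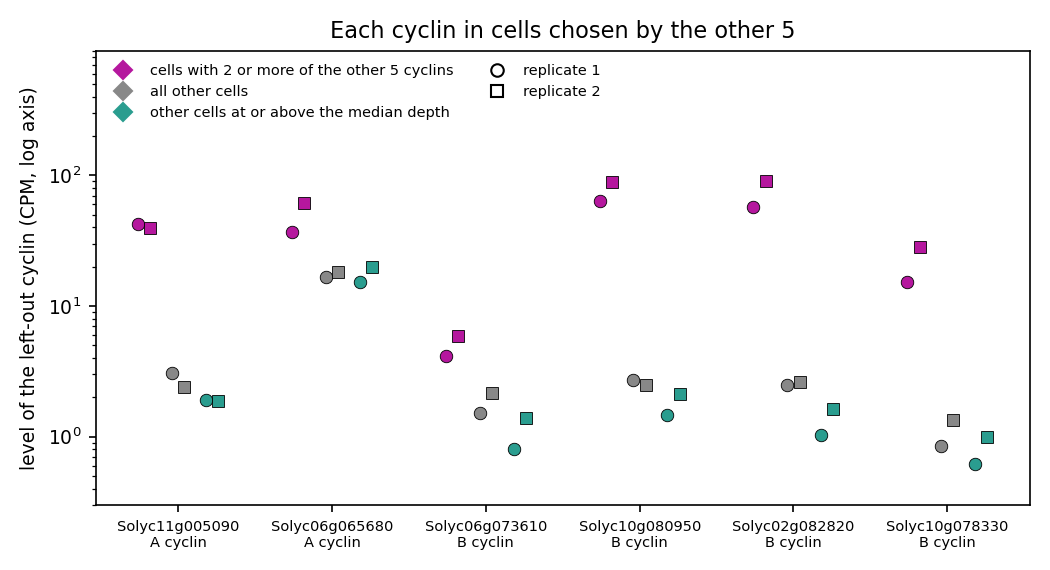
Level of each cyclin (CPM, log axis) in cells chosen by 2 or more of the other 5 genes, in all other cells, and in other cells at or above the median depth of the chosen cells, with circles for replicate 1 and squares for replicate 2. The chosen cells lie highest for all 6 genes, with narrow gaps for Solyc06g065680 and Solyc06g073610.

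Several pairs of cyclins were also detected together in the same cells. At 4000 UMIs per cell, Solyc10g080950 was seen in 216 cells and Solyc02g082820 in 219 cells of replicate 1, and 75 cells had both, 13.05 times the product of the shares. In replicate 2, 48 cells had both, of 104 and 93 cells, 24.7 times the product. The A-type pair was seen together in 58 cells of replicate 1, 3.95 times the product, and in 19 cells of replicate 2, 3.85 times. Solyc06g065680 and Solyc06g073610 were seen together in 3 cells and 2 cells, 0.521 and 0.666 times the product. In replicate 2 no cell had Solyc06g073610 with Solyc11g005090 or Solyc02g082820. In replicate 1 these pairs were seen in 4 and 9 cells, 2.12 and 4.34 times the product. These ratios describe co-detection in sparse counts, and no test was applied.

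By cyclin type the members fell into 3 classes, whose shares had overlapping intervals in the 2 libraries. Both A-type and B-type cyclins were seen in 553 members of replicate 1 (66.9%, exact 95% interval 63.5% to 70.1%) and in 216 of replicate 2 (64.5%, interval 59.1% to 69.6%). A-type cyclins alone, which by the rule means both A-type genes, were seen in 137 (16.6%, interval 14.1% to 19.3%) and 56 members (16.7%, interval 12.9% to 21.2%). B-type cyclins alone were seen in 137 (16.6%, interval 14.1% to 19.3%) and 63 members (18.8%, interval 14.8% to 23.4%). The classes differed in depth. Median UMIs were 25337, 31110 and 20285 for the A only, A and B and B only classes of replicate 1, and 19249.5, 26677 and 10421 in replicate 2. The most frequent combination in both libraries was the pair of A-type genes. Second was all genes except Solyc06g073610, with 66 and 36 cells.

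Next, the rest of the transcriptome was compared between cyclin-positive and other cells of the same library, with the 6 cyclins and all organelle genes left out. UMIs were summed per library and class. P-values rest on how the class difference varied between these 2 libraries, with each gene's spread moderated by edgeR over all genes of the fit. Of 18651 genes tested, 5175 (27.7%) were higher and 5473 (29.3%) lower in cyclin-positive cells (edgeR, adjusted p under 0.05). Among them, 298 were at least 4-fold higher and 1268 at least 4-fold lower. Since the members were deeper and chosen by their transcripts, these counts describe the chosen cells. On CPM alone, 4486 of the higher genes (86.7%) and 5472 of the lower genes had the same direction in both libraries. Of all calls 48.6% were higher with TMM scaling and 26.5% with scaling by total UMIs alone, which moved the median over all genes on the log2 scale from −0.02 to −0.41. Without library as a block the calls fell to 1591 higher and 1554 lower.

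The strongest differences lay far beyond this shift. Solyc09g075550 had 62.0 CPM in members and 1.67 CPM in other cells of replicate 1, and 85.2 against 1.40 CPM in replicate 2. Its log2 fold change was 5.92 ± 0.18 (edgeR adjusted p = 4.26e-14). Solyc02g083640 followed with 102 against 2.87 CPM and 125 against 2.21 CPM, a log2 fold change of 5.85 ± 0.18 (edgeR adjusted p = 4.26e-14). The 10 highest genes with at least 50 CPM in members of each library had log2 fold changes between 4.99 and 5.92, and the tables used give them no name or role.

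At the other end, among genes with at least 50 CPM in the other cells of each library, Solyc12g100090 had 3.68 CPM in members and 51.2 CPM in other cells of replicate 1, and 5.47 against 140 CPM in replicate 2, a log2 fold change of −3.79 ± 0.18 (edgeR adjusted p = 9.34e-12). Solyc09g075410 had 7.76 against 111 CPM and 18.9 against 418 CPM, a log2 fold change of −3.75 ± 0.17 (edgeR adjusted p = 3.39e-12). Among the 8 lowest genes with at least 50 CPM in the other cells of each library, 1 carries a name in the study. Solyc09g090980, a pathogenesis-related STH-2-like protein and one of the study's late exodermal genes, had 9.44 against 134 CPM and 18.1 against 281 CPM, a log2 fold change of −3.50 ± 0.15 (edgeR adjusted p = 1.29e-12). It was also lower against deep cells alone, by −3.60 on the log2 scale.

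Whether the transcripts that accompany the cyclins were shared between the libraries was described by ranking genes in 1 library and measuring them in the other. For each library the 100 genes with the highest ratio of members to other cells were taken, among genes with at least 50 CPM in members. The libraries shared 68 of these 100 genes. At 4000 UMIs per cell, the genes ranked in replicate 2 made up a median of 2.15% of the UMIs of members of replicate 1 and 0.475% of those of other cells. In replicate 2, scored with the genes ranked in replicate 1, these medians were 1.90% and 0.2%. The share rose step by step with the number of cyclins. Members and cyclin counts were those before thinning. Median depth was then 5750 UMIs with no cyclin and 55092 with 6 in replicate 1, and 3176.5 and 36210 in replicate 2. The genes were ranked with the same cyclin rule, so the rise describes the chosen cells and is no test of them. In replicate 1 the median was 0.400% in cells with no cyclin, 0.775% with 1, 1.51% with 2, 2.48% with 3, 2.80% with 4, 3.34% with 5 and 3.95% with 6. In replicate 2 the medians were 0.2%, 0.325%, 1.31%, 2.33%, 2.35%, 2.70% and 3.10%.

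**Figure D3:**
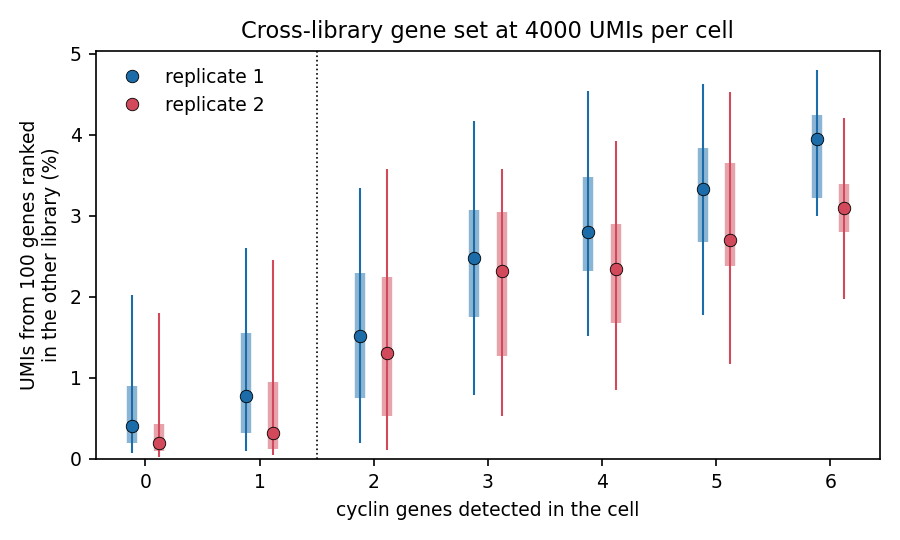
UMIs from the 100 genes ranked in the other library (vertical axis, % of 4000 UMIs) against the number of cyclin genes detected in the cell before thinning (horizontal axis). Dots show medians, thick bars quartiles and thin lines the 5th to 95th percentiles. Cells right of the dotted line are members, and medians rise from 0.400% and 0.2% with no cyclin to 3.95% and 3.10% with all 6.

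Cells outside the rule also reached the levels of members in this gene set. In replicate 1, 844 cells reached the members' median. Of these, 408 were members, 214 had 1 cyclin gene and 222 had none. In replicate 2 the counts were 430, 150, 109 and 171. Among cells outside the rule, 5.87% and 5.98% reached that median.

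The same approach was used on the classes of members. In each library, 50 genes were taken with the highest ratio of B only to A only members, and 50 with the highest ratio of A only to B only members, all with at least 2-fold higher levels in members than in other cells. The B only set was the better shared, with 41 of 50 genes (82%) in both libraries, against 21 of 50 (42%) for the A only set. Scored in the library that had not ranked them, the B only genes made up a median of 0.075% of UMIs in A only cells, 0.275% in A and B cells and 0.650% in B only cells of replicate 1. In replicate 2 the medians were 0.0625%, 0.275% and 1.05%. The A only genes ran the other way by a smaller margin, with medians of 0.750%, 0.625% and 0.475% in the A only, A and B and B only cells of replicate 1. In replicate 2, at 0.813%, 0.625% and 0.700%, the B only cells exceeded the A and B cells.

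**Figure D4:**
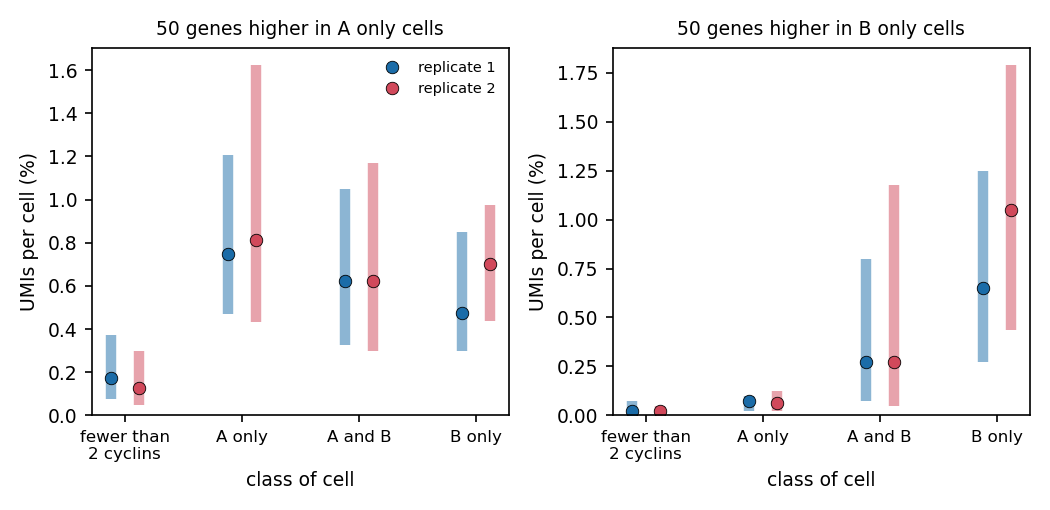
Median (dots) and quartiles (bars) of the UMIs per cell (%) from 50 genes ranked higher in A only members (left) or in B only members (right) of the other library, at 4000 UMIs per cell, for cells with fewer than 2 cyclins and the 3 classes of members. B only genes rise from 0.075% and 0.0625% in A only cells to 0.650% and 1.05% in B only cells.

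In a test over summed counts, members with any B-type cyclin were set against members with A-type cyclins alone. The classes held 690 against 137 cells in replicate 1 and 279 against 56 cells in replicate 2. Both classes were set by the cyclins' own UMIs, so the counts of genes describe cells chosen this way. Of 13549 genes tested, 687 (5.07%) were higher and 326 (2.41%) lower in members with a B-type cyclin (edgeR, adjusted p under 0.05), and 167 of the former were at least 4-fold higher, against 21 of the latter that were at least 4-fold lower. Solyc06g053760 had 217 CPM in members with a B-type cyclin and 8.41 CPM in those without in replicate 1, and 326 against 3.65 CPM in replicate 2. The log2 fold change was 5.08 ± 0.19 (edgeR adjusted p = 1.09e-12). It was also among the 10 highest genes of members against other cells, at 5.63 on the log2 scale. Solyc05g055680 had 3259 UMIs in members with a B-type cyclin and 28 in those without in replicate 1, and 1614 against 0 in replicate 2, with a log2 fold change of 5.08 ± 0.28 (edgeR adjusted p = 1.42e-10). DESeq2's Wald test did not call it (adjusted p = 0.116).

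Among genes with at least 50 CPM in the higher class of each library, the lowest was Solyc04g072000, which had 92.8 CPM against 261 CPM and 168 against 309 CPM, a log2 fold change of −1.21 ± 0.11 (edgeR adjusted p = 3.44e-07). Solyc12g006680 had 14.0 against 54.4 CPM and 105.3 against 126.2 CPM, a log2 fold change of −1.11 ± 0.23 (edgeR adjusted p = 0.00469). Neither of these lower calls passed without the block (adjusted p = 0.276 and 0.986), at 4000 UMIs per cell (0.500 and 0.647) or without the 5% deepest cells (0.511 and 0.110). Over all genes, the fit without library as a block called 93 genes higher and 0 lower, with 930 genes at an unadjusted p under 0.05, and DESeq2's Wald test called 222 higher and 71 lower.

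Gene lists of the study were then followed in cyclin-positive cells. They were picked by the study in part from these libraries, so their direction here is a description. Suberin is a hydrophobic wall polymer that the exodermis, a cell layer just beneath the epidermis in tomato roots, lays down as it differentiates. The list used held 10 suberin-related genes named by the study, 9 biosynthetic enzymes and the transcription factor SlMYB92, and SlFAR3B was not in it. The 9 enzymes were tested and 6 were lower in cyclin-positive cells (66.7%, against 29.3% of all genes tested), with a median log2 fold change of −2.30, against −0.02 over all genes. SlASFT, a feruloyl transferase that supplies the aromatic part of suberin, had 1.22 CPM in members and 6.17 CPM in other cells of replicate 1, and 5.57 against 46.7 CPM in replicate 2. Its log2 fold change was −2.35 ± 0.20 (edgeR adjusted p = 1.32e-08). SlKCS2b, which elongates fatty acids, changed by −3.29 ± 0.40 (edgeR adjusted p = 1.39e-06), SlGPAT5, an acyltransferase for glycerol, by −2.30 ± 0.55 (edgeR adjusted p = 0.00145) and SlLACS4, which activates fatty acids, by −2.21 ± 0.38 (edgeR adjusted p = 7.14e-05). These changes rest on few UMIs in members of replicates 1 and 2. Members held 9 and 6 of SlKCS2b, 4 and 3 of SlGPAT5 and 6 and 10 of SlLACS4. SlGPAT4 was at −0.22 ± 0.30 and SlKCS2a at −0.38 ± 0.28, and neither passed the test. A suberin-gene UMI was seen in 12.9% and 15.2% of members, against 6.38% and 8.53% of the shallower other cells. At 4000 UMIs per cell the shares were 2.25% against 2.50% and 5.50% against 4.93%. These shares were not separated from free RNA in the droplets.

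The lower levels depended on which cells the members were set against. They remained in part when every cell was thinned to equal depth and the members were chosen again. In that fit 2 of 7 suberin genes tested were lower (28.6%, against 15.3% of all genes) and 0 higher, with a median of −1.01. SlASFT was then at −3.51 (edgeR adjusted p = 7.81e-06) on the log2 scale. Against only the other cells with at least the members' median UMIs, a fit that called 23.5% of genes higher and 26.7% lower, SlASFT was at 1.19 (edgeR adjusted p = 0.0134) on the log2 scale, higher in members, and 2 of 5 suberin genes tested were higher and none lower. The other of these 2 was SlGPAT4, at 1.80 (edgeR adjusted p = 0.000396). Few members carried SlASFT. In replicate 1, 5 members held its 37 UMIs, 19 of them in 1 cell, and in replicate 2, 16 members held 51 UMIs, 24 of them in 1 cell. Doublets were kept, and the part of these single cells in the higher value was not tested.

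The same held for the wider exodermal lists. Of 46 late exodermal genes tested, 37 were lower (80.4%, against 29.3% of all genes) and 2 higher (4.35%, against 27.7%) in cyclin-positive cells, with a median of −2.31. Against deep cells, 5 of 32 were higher (15.6%, against 23.5% of all genes) and 5 lower (15.6%, against 26.7%), with a median of 0.28. With every cell thinned, 13 of 32 were lower (40.6%, against 15.3% of all genes) and 1 higher (3.13%, against 10.4%), with a median of −2.17. Of 128 genes tested from the study's co-expression module around suberin genes, 86 were lower (67.2%) and 7 higher (5.47%), with a median of −1.39. Against deep cells 18 of 95 module genes were higher (18.9%, against 23.5% of all genes) and 20 lower (21.1%, against 26.7%), with a median of 0.03. With every cell thinned, 28 of 96 module genes were lower (29.2%, against 15.3% of all genes) and 2 higher (2.08%, against 10.4%), with a median of −0.88. The study listed 821 genes as induced by protoplasting. Of 751 tested, 466 were lower (62.1%) and 86 higher (11.5%) in cyclin-positive cells, with a median of −0.99, and against deep cells 320 of 711 were lower and 139 higher, with a median of −0.43. Among the 711 genes tested in both fits, 447 were lower against all other cells, of which 286 were also lower and 29 higher against deep cells. Summed over the list, these genes made up 25483 CPM in members and 49663 CPM in other cells of replicate 1, and 31394 against 58524 CPM in replicate 2.

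**Figure D5:**
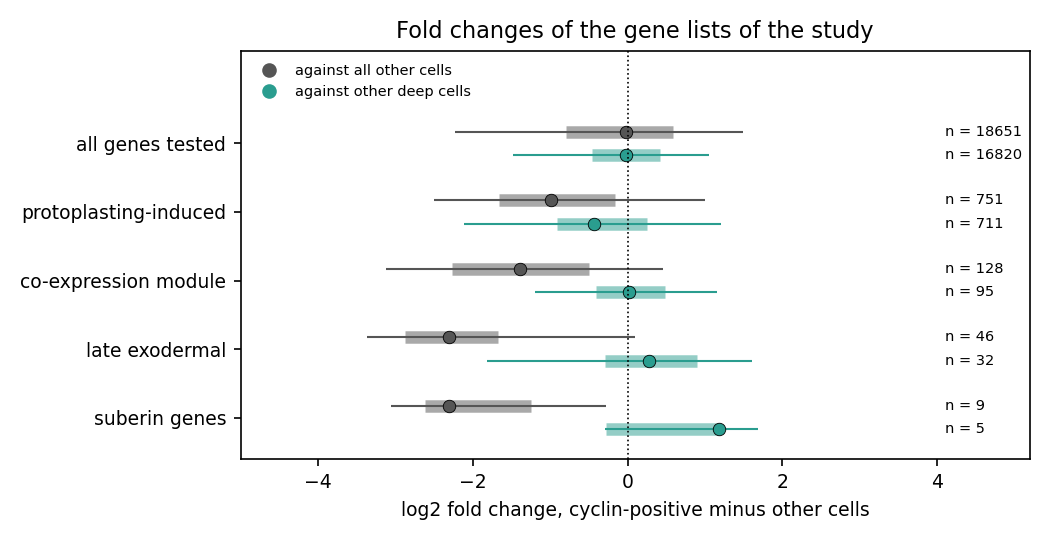
Log2 fold changes of cyclin-positive minus other cells for all genes tested and for 4 gene lists of the study, against all other cells and against other cells of at least the members' median depth, with dots for medians, thick bars for quartiles and thin lines for the 5th to 95th percentiles. The medians of the late exodermal and suberin genes are −2.31 (46 genes) and −2.30 (9 genes) against all other cells. Against deep cells they are 0.28 and 1.19, over the 32 and 5 genes tested there. That of protoplasting-induced genes stays below 0 at −0.99 and −0.43.

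Among module genes 7 of 128 tested (5.47%) were higher in cyclin-positive cells, and among late exodermal genes 2 of 46 (4.35%). Of all genes tested 27.7% were higher. The genes described in detail here were picked after their values were seen. Glucan endo-1,3-beta-glucosidase 3, of a family of enzymes that cleave callose, had 61.7 against 20.0 CPM in replicate 1 and 62.4 against 40.6 CPM in replicate 2, a log2 fold change of 1.53 ± 0.18 (edgeR adjusted p = 6.5e-07). Small nuclear ribonucleoprotein F, a core part of the splicing machinery, had 251 against 146 CPM and 229 against 114 CPM, a log2 fold change of 1.28 ± 0.14 (edgeR adjusted p = 3.67e-07). A dCTP pyrophosphatase, which hydrolyses a building block of DNA, was at 1.00 ± 0.16 (edgeR adjusted p = 2.18e-05), but at −0.19 (adjusted p = 0.855) with 4000 UMIs per cell. A histone H2A, a component of the nucleosome, had 985 against 852 CPM and 768 against 583 CPM, a log2 fold change of 0.69 ± 0.17 (edgeR adjusted p = 0.00206). The histone was not called when libraries were scaled by total UMIs alone (adjusted p = 0.110), nor at 4000 UMIs per cell (adjusted p = 0.131). Small nuclear ribonucleoprotein F and the glucosidase were called under both (log2 fold changes of 0.89 and 1.14 with total UMIs, 0.93 and 1.96 at 4000 UMIs). The other genes called higher included a HIT zinc finger protein (log2 fold change of 1.01) and the transmembrane proteins Solyc02g092130 (1.03) and Solyc10g078420 (1.00). A pyruvate dehydrogenase (0.62) and a pyruvate dehydrogenase kinase (0.45) were also called higher. Neither was called with total UMIs alone (edgeR adjusted p = 0.131 and 0.772) or at 4000 UMIs per cell (0.112 and 0.338). On CPM the kinase was lower in members of replicate 2, at 10.1 against 11.2. At 4000 UMIs per cell the zinc finger protein (edgeR adjusted p = 0.393) and Solyc10g078420 (log2 fold change of −0.27, adjusted p = 0.818) were not called, while Solyc02g092130 was (7.67e-05).

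By the chromosome number in the identifiers, genes at least 4-fold higher in cyclin-positive cells came from all numbered chromosomes. They made up between 0.902% of the tested genes of chromosome 5 and 2.32% of those of chromosome 7.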

How the data were processed

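Libraries of wild-type M82 roots, replicates 1 and 2 of 1 group, were used. Deposited values are raw counts of UMIs for each gene and cell barcode, which the authors made with cellranger 6.0.1 on the genome build SL4.0 with annotation ITAG4.1 and appended organelle sequences, without normalization. Cells with at least 500 UMIs and at most 1% organelle UMIs were kept, the cell limits given in the study's methods. The study reported fewer cells after its filters than the 22634 kept here, and the reason was not tested. Protoplasting-induced genes, which the study removed, were kept and left out in an alternative. Members had UMIs of 2 or more of the 6 cyclins. The 28 organelle genes and the cyclins were left out of tests, except each left-out cyclin in its own fit.

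Counts were summed per library and class and tested with edgeR 4.0.16 (TMM, filterByExpr, glmQLFit and glmQLFTest) in R 4.3.3, with library as a block, since both classes of a library come from 1 protoplast suspension. P-values were adjusted by Benjamini-Hochberg with a threshold of 0.05, and SEs were derived from the log2 fold change and its F statistic. The study calls the libraries biological replicates. P-values and SEs rest on how the class difference varied between these 2 samples and on dispersions that edgeR moderated over all genes, not on each gene's spread alone. Thinning drew 4000 UMIs per cell and left out shallower cells. No doublet caller was run. The test was tested on simulated data. Tables were made in Python 3.11.15 (pandas 2.3.3, numpy 2.4.6) and intervals with scipy 1.17.1. Named genes were those with the 10 highest and 8 lowest log2 fold changes with at least 50 CPM in the higher class of each library, the 5 highest and 5 lowest of the comparison by B-type cyclin, and up to 4 called genes per list with at least 30 UMIs in the higher class, of which at most 2 unnamed identifiers per direction and comparison are printed. Alternatives were another scaling, DESeq2 1.42.0, no filter on low counts, no block, other cell filters (at least 1000 UMIs, an organelle limit of 5%), 3 or more cyclins, other comparison cells, thinning, and no cells among the 5% deepest. The members and lists were chosen with earlier results of these data known. Lists by gene description (cell cycle classes and markers of other cell types) were not matched, since no description of these identifiers was used here, so markers other than the suberin genes were not checked. The left-out cyclins, the cross-library rankings and the A only against B only ranking were added after the data were seen.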

Additional observations from a re-analysis of the deposited data

How the results depend on the processing

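The mean share of cyclin-positive cells, 4.97%, was 2.24% at 4000 UMIs per cell and 2.18% with 3 or more cyclins required, and ranged from 3.27% to 6.67% when either replicate was left out. For members against other cells, scaling by total UMIs alone gave 2995 genes higher and 8308 lower, the fit without the replicate block 1591 and 1554, and thinning to 4000 UMIs 1652 and 2432. Without the 5% deepest cells 3443 were higher. For members with a B-type cyclin, counts higher and lower were 222 and 71 by DESeq2's Wald test, 93 and 0 without the replicate block, 106 and 85 after thinning, and 180 and 53 without the 5% deepest cells. Thinning leaves fewer cells and genes to test, and the cause of the other moves was not tested. Against other deep cells, SlASFT (Solyc03g097500) went from −2.35 to 1.19 and protein PELP.1 (Solyc07g017980), a module gene, from −3.39 to 0.47 (edgeR adjusted p = 0.675). After thinning, SlASFT was still lower, at −3.51 (edgeR adjusted p = 7.81e-06). With 1 library left out no residual degrees of freedom remain, so counts of genes have no value there. The lists by gene description were not run under any alternative.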
